A study of Drosophila melanogaster with 2 samples.

Results

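The regions described are chn ChIP-seq peaks whose summit lies at a divergent promoter of 2 genes, where one protein-coding gene is transcribed to the left and its neighbour to the right. A summit was taken if it lay within 500 bp of a protein-coding transcription start site (TSS) and if, within 1000 bp, a minus-strand TSS stood to the left of a plus-strand TSS of another gene with a gap of at most 1000 bp. The peaks kept by the irreproducible discovery rate (IDR), a measure of agreement between replicates, are called the IDR set. By this rule 1050 dm6 summits of the IDR set were at divergent promoters, which is 23.1% of the set and 44.8% of the 2345 summits within 500 bp of a TSS. They lie at 952 gene pairs with 1896 genes. There were 1295 other promoter peaks in the IDR set. The relaxed list of the pooled replicates gave 1425 weaker summits at divergent promoters that overlap no IDR peak, called relaxed divergent summits here. That list is deposited as peaks and background together, so a relaxed summit need not be a site bound by chn.

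The data come from whole Drosophila melanogaster embryos of both sexes, collected 0 to 24 h after egg laying, from strain chn-GFP, a transgenic line that carries charlatan (chn) fused to GFP at its C-terminal end. Chromatin was precipitated with an anti-GFP antibody, so all values are for the tagged protein. There was 1 group with 2 biological replicates and no second genotype, stage or treatment. Embryos of all stages up to 24 h and all cell types were pooled, so binding in few cells and weak binding in many cells cannot be told apart. Depth is unknown, as the lists hold no read totals. The IDR set is the top of the pooled list when that is ranked by signal, and the signal is the authors' value for each peak.

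Charlatan is a C2H2 zinc finger transcription factor known for its part in sensory organ development, where it acts on the proneural genes achaete and scute. In the compact fly genome many genes are arranged head to head and share one short nucleosome-depleted stretch from which both are transcribed. Such promoters are known to serve broadly expressed genes, and to carry the DNA replication-related element (DRE) bound by Dref, the overlapping site of the insulator protein BEAF-32, and core promoter motifs 1, 6 and 7, of which motif 1 is bound by M1BP. GAGA repeats, bound by GAGA factor (Trl), and the TATA box are better known from promoters of developmentally regulated genes.

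The DNA between the 2 start sites is shown for 7 divergent promoters on arms 2L, 3L and 3R. Each gap is 60 to 300 bp long and free of annotated exons. Among such promoters on these arms, 5 have the highest signal and another is the next that holds a whole DRE. The last is the cytoplasmic ribosomal protein promoter of highest signal. Each sequence runs from the base after the TSS of the first gene, which is transcribed to the left, to the base before the TSS of the second, which is transcribed to the right. Coordinates and bases are of the Release 6 (dm6) genome as given by RefSeq. Capitals mark motifs on either strand. The BEAF-32 site is CGATA. The DRE is TATCGATA and holds a BEAF-32 site on each strand. Motif 7 is CAGCNCT. The E-box is CAGCTG, and the last motif marked is ACAGTGG.
Tcs5/CHMP2B (chr3L:5139396-5139618, + strand): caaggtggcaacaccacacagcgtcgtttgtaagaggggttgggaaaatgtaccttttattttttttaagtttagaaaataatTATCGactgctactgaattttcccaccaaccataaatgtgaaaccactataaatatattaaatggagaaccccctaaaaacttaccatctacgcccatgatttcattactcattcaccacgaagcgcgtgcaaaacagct
Art3/mRpS10 (chr3R:15229409-15229664, + strand): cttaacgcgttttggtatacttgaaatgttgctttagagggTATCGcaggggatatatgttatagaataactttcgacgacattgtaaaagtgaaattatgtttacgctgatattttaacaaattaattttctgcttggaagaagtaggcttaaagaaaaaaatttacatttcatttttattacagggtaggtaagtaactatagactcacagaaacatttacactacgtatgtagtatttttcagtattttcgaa
Atat/Shc (chr3L:9426759-9427009, + strand): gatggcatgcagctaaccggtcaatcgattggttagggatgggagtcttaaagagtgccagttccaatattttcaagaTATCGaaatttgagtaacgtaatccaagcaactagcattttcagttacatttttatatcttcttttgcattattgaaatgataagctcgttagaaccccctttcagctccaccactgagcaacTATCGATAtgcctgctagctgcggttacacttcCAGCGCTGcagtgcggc
Mkk4/SLIRP2 (chr3R:8650797-8651083, + strand): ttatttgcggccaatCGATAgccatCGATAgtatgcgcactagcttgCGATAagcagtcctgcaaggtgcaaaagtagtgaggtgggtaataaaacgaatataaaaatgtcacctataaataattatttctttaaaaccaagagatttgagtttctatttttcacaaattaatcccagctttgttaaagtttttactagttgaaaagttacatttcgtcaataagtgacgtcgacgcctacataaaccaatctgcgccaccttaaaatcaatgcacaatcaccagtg
Coq4/CG32176 (chr3L:17433622-17433867, + strand): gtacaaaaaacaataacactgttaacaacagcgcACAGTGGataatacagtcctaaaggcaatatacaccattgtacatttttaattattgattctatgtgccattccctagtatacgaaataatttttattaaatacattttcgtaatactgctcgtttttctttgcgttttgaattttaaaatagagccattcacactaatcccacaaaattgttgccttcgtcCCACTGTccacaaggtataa
Gmd/CG3792 (chr2L:4977024-4977311, + strand): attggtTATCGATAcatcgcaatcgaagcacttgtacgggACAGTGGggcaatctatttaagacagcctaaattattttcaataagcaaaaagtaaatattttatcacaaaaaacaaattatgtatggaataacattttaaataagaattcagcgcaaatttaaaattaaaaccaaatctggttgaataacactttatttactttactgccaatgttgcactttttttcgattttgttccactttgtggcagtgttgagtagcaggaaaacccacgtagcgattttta
RpS27/Nup37 (chr3R:25247515-25247657, + strand): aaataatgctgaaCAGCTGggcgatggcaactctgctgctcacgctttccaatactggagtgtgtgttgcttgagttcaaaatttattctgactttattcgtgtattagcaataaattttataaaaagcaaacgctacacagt

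The summit at Tcs5/CHMP2B lay at base 116 of this sequence, to the right of the single BEAF-32 site, and at Art3/mRpS10 it lay at base 92, again to the right of a single BEAF-32 site. Atat/Shc had its summit at base 130, between a BEAF-32 site on its left and the whole DRE and 2 overlapping copies of motif 7 on its right. Mkk4/SLIRP2 carried 3 BEAF-32 sites near the start of Mkk4, with the summit at base 172. Coq4/CG32176 had 2 copies of ACAGTGG, one toward each gene, and no BEAF-32 site, with the summit at base 170. Gmd/CG3792 held a DRE and a copy of ACAGTGG, both left of its summit at base 152. RpS27/Nup37 had 1 E-box, which contained its summit at base 17.

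Divergent promoter summits were in the IDR set more often than other promoter summits. Of the 2693 pooled summits at divergent promoters, 1050 (39.0%, 95% exact binomial interval 37.1 to 40.9%) were in the IDR set, against 1295 of 5454 (23.7%, 22.6 to 24.9%) at other promoters. The odds ratio was 2.05 (95% interval 1.86 to 2.27, two-sided Fisher's exact test, p = 3.15e-45). The share was 10.03% at summits of no promoter and 15.1% over all 30000 pooled summits. It is a share of peaks above one signal rank, since the IDR set is the top of the same list. Regions are the units of the intervals and tests, which cover counting error only, and the spread between embryos is not in them. In the list of each replicate alone, with as many of its strongest peaks as the IDR set holds, the odds ratio was 1.86 with replicate 1 and 2.07 with replicate 2.

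The share differed between ranges of the gap between the 2 TSSs. Of 347 pooled summits with a gap of up to 100 bp, 35.4% were in the IDR set. The share was 38.9% of 265 at over 100 to 200 bp and 48.0% of 1014 at over 200 to 400 bp (44.9 to 51.2%). It was 32.7% of 773 at over 400 to 700 bp and 28.6% of 294 at over 700 to 1000 bp (23.5 to 34.1%), and only this interval reached the value of other promoters. Counted over the 2667 divergent gene pairs of the annotation instead of over peaks, 1035 (38.8%) had an IDR summit, 996 (37.3%) had a relaxed summit only and 636 (23.8%) had none. By gap, the pairs with an IDR summit were 36.1%, 33.9%, 50.1%, 35.0% and 21.6%, so both counts were highest at over 200 to 400 bp. These shares are a description, and the differences between gaps were not tested.

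**Figure D1:**
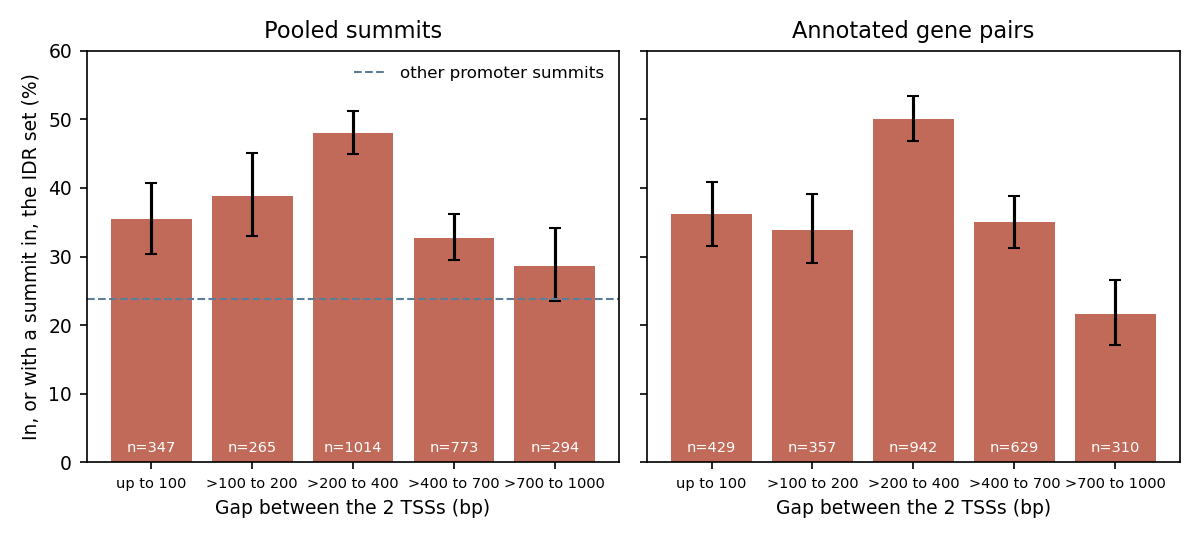
Share of pooled summits at divergent promoters that are in the IDR set (left) and of annotated divergent gene pairs with an IDR summit (right), in percent, by the gap between the 2 TSSs in bp. Bars carry 95% exact binomial intervals and the dashed line is the 23.7% of other promoter summits; both panels peak at over 200 to 400 bp, with 48.0% and 50.1%.

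Summits of the IDR set lay between the 2 start sites. Of the 1050, 834 (79.4%, 76.9 to 81.8%) had their summit in the gap, against 712 of 1425 relaxed divergent summits (49.96%, 47.3 to 52.6%). The odds ratio was 3.86 (3.22 to 4.63, two-sided Fisher's exact test, p = 2.01e-52), and it was 3.77 with replicate 1 alone and 3.87 with replicate 2 alone. Relaxed divergent summits overlap no IDR peak by definition. At a pair with an IDR peak in its gap, this rule keeps relaxed summits away from that peak. How much this adds to the contrast was not tested. With a gap of up to 100 bp, 29.3% of 123 IDR summits and 26.3% of 205 relaxed summits lay between the start sites, and the intervals overlap (21.4 to 38.1% and 20.5 to 32.9%). At over 100 to 200 bp the shares were 72.8% and 36.5%, and at over 200 to 400 bp they were 89.7% and 54.8%. At over 400 to 700 bp they were 85.4% and 51.5%, and at over 700 to 1000 bp 83.3% and 69.9%, so the IDR summits had the higher share at each gap above 100 bp, with intervals that overlap at over 700 to 1000 bp (73.6 to 90.6% and 63.0 to 76.2%). The differences within each range of gap were not tested.

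The IDR summits sat upstream of the nearer of the 2 start sites, at a median of 59 bp (quartiles 14 and 102 bp), against 0 bp (quartiles -155 and 58 bp) for relaxed summits, where negative values are inside the transcribed side. The range from 50 to under 100 bp upstream held 304 IDR summits (29.0%) and 191 relaxed summits (13.4%). More than 200 bp inside the transcribed side were 33 IDR summits (3.14%) and 295 relaxed summits (20.7%). As above, relaxed summits that overlap an IDR peak are left out of these counts. Among summits between TSSs that are over 200 to 400 bp apart, 183 of 437 IDR summits (41.9%, 37.2 to 46.7%) and 53 of 233 relaxed summits (22.7%, 17.5 to 28.7%) were within 50 bp of the midpoint. The median distance to the midpoint was 60 bp in the IDR set and 87.5 bp in the relaxed set. To the nearer TSS it was 80 bp in the IDR set and 58 bp in the relaxed set. Summits placed evenly over the gap were not computed as a reference, so the values compare the 2 sets only. The nearest TSS was on the minus strand for 523 of the 1050 (49.8%, 46.7 to 52.9%).

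**Figure D2:**
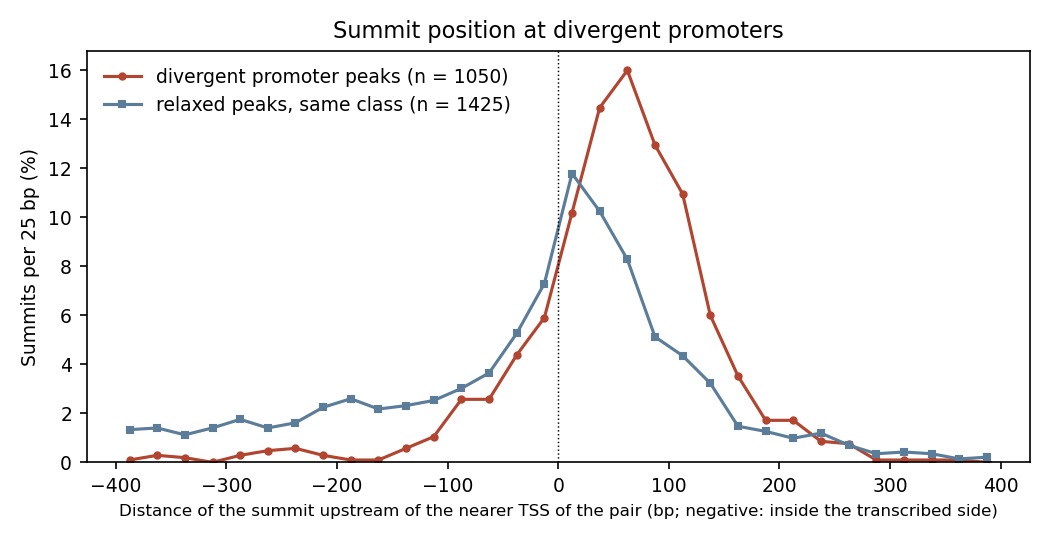
Percent of summits in each 25 bp step of distance upstream of the nearer TSS of the pair, in bp, for the 1050 IDR summits (red) and the 1425 relaxed divergent summits (blue), which overlap no IDR peak. The IDR summits peak between 50 and 100 bp upstream (29.0%), and the relaxed summits are centred on the TSS (median 0 bp) with a tail into the transcribed side.

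The gap itself had a median of 305.5 bp (quartiles 222.5 and 465 bp, range 1 to 999 bp) at IDR summits and 372 bp (quartiles 210 and 571 bp) at relaxed summits. One qualifying gene pair was found for 983 of the 1050 summits, and 67 had more than 1, of which the closest was used. A single summit lay at 857 of the 952 pairs, 92 had 2 summits and 3 pairs had 3. In the 95 pairs with more than 1 summit the outermost summits were a median of 207 bp apart, with a range of 199 to 2519 bp. At Hat1/Rpn5 the summits 199 bp apart came from overlapping peak intervals of equal length. Whether the peak calling sets this least distance was not tested. Fur1/Vps33B had the strongest such pair of summits, 207 bp apart, with pooled signals of 724 and 286.

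Summits of each replicate alone lay near most of the IDR summits. A replicate 1 summit lay within 100 bp of 1030 of the 1050 summits, at a median of 6 bp, and a replicate 2 summit within 100 bp of 1012, at a median of 11 bp. These distances are from the summit of the pooled list, which holds both replicates, and the IDR selects for agreement, so they do not measure the distance between the replicates. Counting only as many of each replicate's strongest summits as the IDR set holds, 920 (87.6%) were found in replicate 1, 900 (85.7%) in replicate 2, 789 (75.1%, 72.4 to 77.7%) in both and 19 in neither. At other promoter peaks 942 of 1295 (72.7%, 70.2 to 75.2%) were found in both, and the intervals overlap. Over the 993 divergent promoter peaks matched in both lists, the signals of the replicates had Spearman's rho of 0.781 and Pearson's r of 0.833 on the log2 scale, a description across peaks of the same libraries. The same values over 1229 matched other promoter peaks were 0.736 and 0.820.

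**Figure D3:**
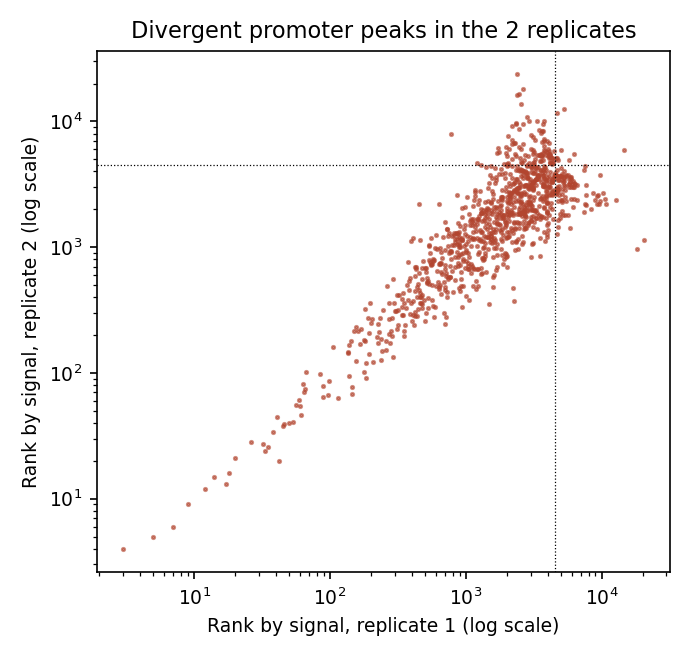
Rank by signal of the 993 divergent promoter peaks with a summit within 100 bp in both replicate lists, replicate 1 on the x axis and replicate 2 on the y axis, both on log scales, rank 1 being the strongest peak. Dotted lines mark the rank equal to the size of the IDR set, and the peaks lie along the diagonal, with wider scatter among weaker peaks.

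The median signal in the pooled list was 125 at divergent promoter peaks (quartiles 91.6 and 190, range 71.5 to 1551), against 113 at other promoter peaks (quartiles 87.9 and 178, range 71.5 to 1972). The ratio of the medians was 1.11, with 1.09 in the replicate 1 list and 1.15 in the replicate 2 list. Of the divergent promoter peaks 291 (27.7%, 25.02 to 30.5%) were among the 1000 strongest of all pooled peaks, against 310 (23.9%, 21.6 to 26.4%) of the other promoter peaks. Within these 1000 the ratio of the medians was 0.994, so its direction was reversed there.

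The strongest divergent promoter peak stood at Chro/Ssl1, 99 bp inside the transcript of Chro, which encodes the interband chromatin protein Chromator, beside Ssl1, a subunit of the general factor TFIIH. Its signal was 1551 in the pooled list, 927 in replicate 1 and 624 in replicate 2, where it ranked 3 and 4. Ugalt/eIF2Bbeta, a UDP-galactose transporter beside a translation initiation factor subunit, had 1462 pooled, 903 in replicate 1 and 566 in replicate 2. Tcs5/CHMP2B, a tRNA modification gene beside an ESCRT-III gene, had 1343, 783 and 562 in the same order. Both held nearly the same rank in the 2 replicates, 5 and 5 for Ugalt/eIF2Bbeta and 7 and 6 for Tcs5/CHMP2B.

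PNPase/Gprk2, a mitochondrial RNA processing enzyme beside a kinase of G protein-coupled receptors, had a pooled signal of 1265, with 748 in replicate 1 and 522 in replicate 2. Mitochondrial ribosomal protein genes stood at 3 of the 12 strongest divergent promoters: mRpS23/CenG1A at 1132, Art3/mRpS10 at 968 and mRpL41/CG8079 at 827. Of the 1965 genes of divergent pairs with an IDR summit, 32 were mitochondrial ribosomal protein genes. The rest of the 12 were Pex11ab/CG8320 (979), Fbw5/CG9147 (944), Atat/Shc (909), tank/CG12194 (853) and Pdrg1/Pal1 (830). Atat encodes the acetyltransferase of alpha-tubulin and Shc an adaptor of receptor tyrosine kinases. Of the 12 summits, 8 lay between the start sites and 4 (Chro/Ssl1, PNPase/Gprk2, Pex11ab/CG8320 and tank/CG12194) lay inside one of the transcripts, and all 12 ranked among the 42 strongest peaks of both replicates.

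The 2 weakest were CG3104/RpS21 (pooled signal 71.6, with 33.9 in replicate 1 and 40.1 in replicate 2) and Not1/Nt5c (71.5, with 45.6 and 27.9). CG3104/RpS21 ranked 6327 in replicate 1 and 3179 in replicate 2, and Not1/Nt5c ranked 4089 and 5516, so each was outside the strongest peaks counted above in one replicate. Not1 encodes the scaffold of the CCR4-NOT deadenylase. At the limits of the rule, the summits farthest from a TSS that were still counted lay 456 bp away at Vha100-2/Vti1b (signal 101.5) and 461 bp away at CG13038/CG13058 (108), and the nearest left out were 502 bp away (85.8) and 506 bp away at RpS19b/CG5854 (198). By gap, the last counted were CG30015/nclb at 977 bp (109) and hts/CalpA at 999 bp (96.2), and the first left out were Alp1/Syx7 at 1015 bp (72.6) and CG9776/CG14645 at 1027 bp (95.4).

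By role, genes with symbols of cytoplasmic ribosomal proteins had the highest share of the 12 lists. Of 5052 genes in annotated divergent pairs, 1965 (38.9%) had an IDR summit at the pair. Among cytoplasmic ribosomal protein genes these were 44 of 56 (78.6%), and among mitochondrial ribosomal protein genes 32 of 58 (55.2%). Transcriptional corepressors had 5 of 7. The count is given per gene, and both genes of a pair share a summit, so it is a description without a test.

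RpS27/Nup37, a ribosomal protein gene beside a nuclear pore gene, led the cytoplasmic list with a pooled signal of 482, with 253 in replicate 1 and 218 in replicate 2. Ripalpha/RpL7 had 453 (277 and 175) and RpL34b/CG8132 had 408 (232 and 172). The median signal of the cytoplasmic list was 135, near the 125 of all divergent promoter peaks, so the list had many summits of usual strength. The 3 strongest of the mitochondrial ribosomal list are among the 12 given above, while the list's median was 112, below the 125 of all divergent promoter peaks.

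The other 9 lists with over 7 genes had shares between 25.9% and 43.5%, on both sides of the 38.9% of all. The translation factors (11 of 26) were led by Ugalt/eIF2Bbeta, with CCHa1-R/eIF3c at 288 and RpL28/eIF1 at 265. RpL28/eIF1 and trr/mRpL16 (84.0) were the pairs with both genes on a list, and trr encodes a histone H3K4 methyltransferase. The aminoacyl-tRNA synthetases (10 of 23), which charge tRNAs, were led by SerRS/CG17260 (344), GluProRS/AP-1sigma (260) and Hem/IleRS (195).

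Among the genes of the transcription machinery, Mediator, the coactivator that links activators with RNA polymerase II, had 8 of 19 genes with a summit, led by MED30/Rev1 (396), elm/MED27 (342) and CG4297/MED15 (315). Its median signal, 205, was the highest of the lists. RNA polymerase subunits had 8 of 19, among them CG11247/Polr2H (367) and 140up/Polr2B (183). The Polycomb and trithorax list had 9 of 21, led by brm/Arl1 (298), where brm encodes the ATPase of the BAP and PBAP remodelling complexes, skd/Pdss2 (267) and Su(z)12/Pfdn6 (198). Corepressor genes were AP-2alpha/ebi (333), Sin3A/Amph (107) and MTA1-like/Sec23 (84.5) at the strongest.

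The respiratory chain list had 13 of 43 genes with a summit, led by TppII/ND-MWFE (340), glo/COX5A (250) and ND-ASHI/Fum1 (248). The proteasome list had 9 of 26, led by Hat1/Rpn5, where 2 summits stood at 271 and 186, and Rpn6/ave (180). No replicate 2 summit lay within 100 bp of the stronger Hat1/Rpn5 summit. DNA replication genes had 5 of 17, led by RPA1/Mcm2 (149), qkr58E-3/PolE4 (140) and PCNA2/CG10366 (132). Splicing genes had 7 of 27, led by Sf3b6/Tnpo (143), Nle/Sf3b1 (109, with no replicate 2 summit within 100 bp) and Msh6/Prp31 (104).

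By chromosome arm, the share of annotated divergent pairs with an IDR summit was 45.4% on 3R (310 of 683), 41.5% on 3L (215 of 518), 37.9% on 2L (193 of 509), 36.3% on 2R (197 of 543) and 29.8% on X (120 of 403, 25.4 to 34.5%). On chromosome 4 it was 0 of 11, which allows a share of up to 28.5%. The X held 121 of the 1050 divergent promoter peaks (11.5%), against 243 of the 1295 other promoter peaks (18.8%). The differences between arms were not tested, and embryos of both sexes were pooled.

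The DNA within 100 bp of each summit was searched for 15 motifs on both strands, and the odds of holding each were compared within strata of 4% GC by an exact Mantel-Haenszel test, with p-values adjusted over 30 tests. The strata matter here, since the GC content averaged 37.7 ± 6.70% (SD, 1050 windows) at divergent promoter peaks, 42.6 ± 9.43% at relaxed divergent summits (1425 windows) and 40.5 ± 8.31% at other promoter peaks (1295 windows). A motif was called at an adjusted p under 0.05. Set against other promoter peaks, 6 motifs were called higher (40.0% of those tested) and 2 lower (13.3%). Against relaxed divergent summits 4 were called higher (26.7%) and none lower (0%), where motif 1 alone was lower at an unadjusted exact p under 0.05 and Fisher's test without strata called GGACAGC lower. ACAGTGG is counted among the calls of both comparisons, though it was chosen from earlier results of these data. A match is a description of the letters and does not show that a factor is bound.

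The DRE was in 132 of the 1050 divergent promoter peaks (12.6%), 77 of the 1295 other promoter peaks (5.95%) and 1.94% of all 30000 pooled windows. Set against those peaks the odds ratio was 2.18 (1.62 to 2.94, exact test, adjusted p = 2.07e-06). The BEAF-32 site CGATA, which every DRE contains, was in 514 (48.9%) against 450 (34.7%) and in 23.2% of all pooled windows, with an odds ratio of 1.78 (1.501 to 2.11, exact test, adjusted p = 4.44e-10). Both calls held under all 10 alternatives run for that comparison.

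GAGA repeats (GAGAGAG) showed the reverse. They were in 16 divergent promoter peaks (1.52%) and in 136 other promoter peaks (10.5%), with 4.43% of all pooled windows, and the odds ratio was 0.172 (0.101 to 0.293, exact test, adjusted p = 3.01e-13). This call too held under all 10 alternatives. The Zelda site (CAGGTAG), known from early zygotic enhancers, was in 7 divergent promoter peaks (0.667%), 12 other promoter peaks (0.927%) and 1.45% of all pooled windows, too few to compare.

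The same contrast between divergent and other promoters was present in the relaxed peaks, a comparison chosen after the data were seen. Among 1425 relaxed divergent and 3917 relaxed other promoter summits, 4 motifs were called higher (26.7%) and 1 lower (6.67%). The DRE was in 9.68% against 3.42% (odds ratio 2.42, 1.88 to 3.11), CGATA in 41.1% against 27.7% (1.66, 1.46 to 1.89) and GAGA repeats in 2.81% against 7.20% (0.441, 0.313 to 0.620). The DRE, CGATA and GAGA contrasts were thus in the same direction at relaxed summits, which can be background, and in the IDR set. Against the relaxed divergent summits, the DRE had an odds ratio of 1.07 (0.826 to 1.38) and CGATA 1.10 (0.931 to 1.30), neither of which passed the threshold. Without the GC strata CGATA was called higher there (1.38, Fisher's exact test, adjusted p = 0.000431).

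Motif 7 (CAGCNCT) was higher in both comparisons. It was in 220 divergent promoter peaks (21.0%), against 218 relaxed divergent summits (15.3%) and 186 other promoter peaks (14.4%), with 10.03% of all pooled windows. The odds ratio was 1.55 against relaxed divergent summits (1.25 to 1.93, exact test, adjusted p = 0.000343) and 1.74 against other promoter peaks (1.40 to 2.17, exact test, adjusted p = 6.25e-06). The E-box CAGCTG was in 185 (17.6%), against 204 (14.3%) and 163 (12.6%), with 11.6% of all pooled windows, and odds ratios of 1.46 (1.16 to 1.83, exact test, adjusted p = 0.00522) and 1.59 (1.26 to 2.01, exact test, adjusted p = 0.000619). The call against relaxed divergent summits was lost in 6 of 9 alternatives for the E-box, among them replicate 1 alone (1.15) and replicate 2 alone (1.25), and in 1 of 9 for motif 7, the 1000 strongest peaks (1.38, adjusted p = 0.148 by the exact test). The call against other promoter peaks was lost in 3 of 10 for the E-box, namely the 1000 strongest peaks (1.85), 1 TSS per gene (1.36) and relaxed peaks (1.16), and in 1 of 10 for motif 7, 1 TSS per gene (1.33, adjusted p = 0.0579 by the exact test).

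ACAGTGG, a 7-mer known from earlier results of these data, went in opposite directions. As it was chosen from these same data, its p-values are not those of an independent test. It was in 55 divergent promoter peaks (5.24%), against 41 relaxed divergent summits (2.88%), with an odds ratio of 1.92 (1.25 to 2.96, exact test, adjusted p = 0.0106). Other promoter peaks held it more often, in 120 of 1295 (9.27%), with an odds ratio of 0.541 (0.388 to 0.755, exact test, adjusted p = 0.000865). It was in 4.90% of all pooled windows. The first call was lost in 3 of 9 alternatives: with replicate 1 alone (1.36, exact test, adjusted p = 0.284), with the 1000 strongest peaks (1.87) and within 50 bp of the summit (1.62). The second was lost in 4 of 10: with 1 TSS per gene (0.855), with summits within 250 bp of a TSS (0.673), within 50 bp of the summit (0.633) and in relaxed peaks (0.780).

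The calls of the remaining motifs were also lost in several alternatives. CAGCACC, part of the RE1 element bound by mammalian REST, was in 35 divergent promoter peaks (3.33%), against 36 relaxed divergent summits (2.53%) and 3.39% of all pooled windows. The odds ratio against relaxed divergent summits was 2.32 (1.32 to 4.08, exact test, adjusted p = 0.0113). That call was lost in 4 of 9 alternatives, among them the test without GC strata (1.33, Fisher's exact test, adjusted p = 0.341). Another part of the RE1 element, GGACAGC, was in 7 (0.667%) against 25 (1.75%) and did not pass (0.630, 0.262 to 1.52). Compared with other promoter peaks, the TATA box (TATAAA) was in 33.5% against 24.9% (odds ratio 1.26, exact test, adjusted p = 0.0438) and the N-box (CACNAG) in 273 against 294 peaks (1.32, exact test, adjusted p = 0.0164), and each of these calls was lost in 8 of 10 alternatives. Motif 1 (GGTCACAC) was in 6.76%, against 8.35% of relaxed divergent summits and 4.71% of other promoter peaks, and passed in neither comparison (adjusted p = 0.0694 and 0.0509, exact test). It was called lower than at relaxed divergent summits in 4 of 9 alternatives, namely replicate 1 alone (0.647), the 1000 strongest peaks (0.432), a gap of at most 500 bp (0.623) and summits within 250 bp of a TSS (0.654). It was called higher than at other promoter peaks in 3 of 10, namely replicate 2 alone (1.88), the 1000 strongest peaks (12.7, 1.79 to 89.96) and relaxed peaks (2.13). Motif 6 (GTATNTTT), the initiator (TCAGT) and the E-box CACGTG passed in neither. Against relaxed divergent summits with summits within 250 bp of a TSS, motif 6 was called lower (0.725) and the N-box higher (1.28), and the N-box was also called higher with a gap of at most 500 bp (1.35).

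**Figure D4:**
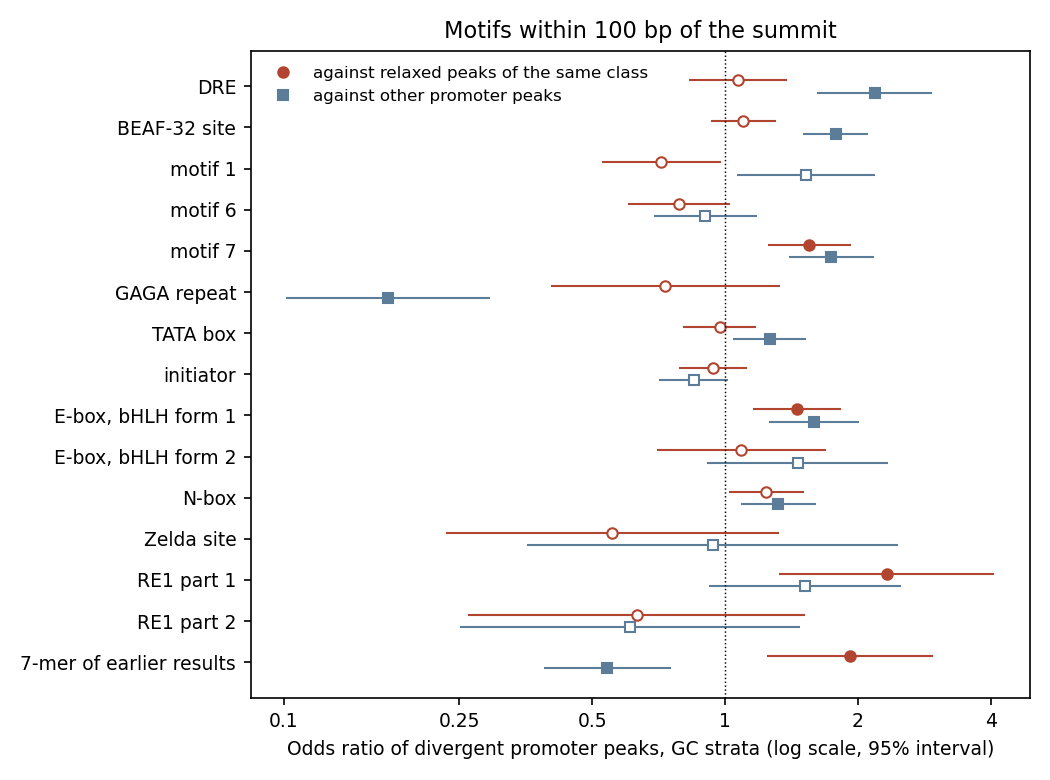
Odds ratio (log scale, 95% interval, strata of 4% GC) that a divergent promoter peak holds each of 15 motifs within 100 bp of its summit, against relaxed divergent summits (red circles) and other promoter peaks (blue squares); filled symbols have an adjusted p under 0.05. The E-boxes of bHLH forms 1 and 2 are CAGCTG and CACGTG, and the lowest row is ACAGTGG, which was chosen from earlier results of these data. Against other promoter peaks the DRE (2.18) and GAGA repeat (0.172) stand farthest from 1 among the filled symbols.

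All 7-mers were then searched, counting both strands as one. Set against other promoter peaks, 16 were called higher (0.195% of those tested) and 18 lower (0.22%). A call needed an odds ratio of at least 1.5, or at most the inverse, with an adjusted p under 0.05. CTATCGA led the higher ones, in 194 peaks (18.5%) against 102 (7.88%), followed by CGATAGC (11.1% against 4.32%), ATCGATA (22.9% against 12.7%), ACTATCG (14.4% against 7.03%) and AGCTATC (5.90% against 2.16%). AGCCCTG (7.62% against 3.40%), AGGGCTG (7.33% against 3.40%) and GCAGCCC (6.10% against 2.86%) overlap motif 7, and ACAGCTG (13.1% against 8.11%) holds the E-box. AGAGATG (8.95% against 4.48%) was the tenth.

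The 5 lower 7-mers of smallest p were CTCTCTC (1.52% against 10.5%), AGAGAGC (1.71% against 9.34%), CGCTCTC (2.10% against 9.58%), GAGAGAA (1.52% against 6.25%) and AGAGAGA (1.81% against 7.49%), each with GAGAG on one strand. Their odds ratios were 0.172 to 0.287 and their adjusted p-values by the exact test 8.41e-05 or smaller. ACAGTGG and CACAGTG, which overlaps it, were also among the 18. Among relaxed peaks, divergent against other promoters, 28 7-mers were called higher (0.342%) and 15 lower (0.183%), of which 6 and 6 were the same as in the IDR set.

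Against relaxed divergent summits only 5 7-mers were called higher (0.061%) and 0 lower (0%); 273 and 259 had an unadjusted exact p under 0.05, and Fisher's exact test without strata called 118 and 135. AGTGTTG was in 150 divergent promoter peaks (14.3%) against 87 (6.11%), with an odds ratio of 2.31 (1.75 to 3.07, exact test, adjusted p = 1.18e-05). AGAGATG was in 94 (8.95%) against 44 (3.09%), with 2.76 (1.89 to 4.04, exact test, adjusted p = 0.000247), and it was also called higher against other promoter peaks. ATCTCTA was in 75 (7.14%) against 31 (2.18%), with 3.01 (1.94 to 4.67, exact test, adjusted p = 0.0011). Its first 6 letters are also on the other strand of AGAGATG. The remaining 2, AAAACTT (12.7% against 5.83%) and CTTGCCA (42 peaks against 29) passed with adjusted p = 0.0388 and 0.0493 by the exact test.

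The motifs also varied with signal among the divergent promoter peaks themselves. The 1050 peaks were split into 350 strongest (signal 163 to 1551), 350 middle and 350 weakest (71.5 to 101.1), a split chosen after the data were seen. The DRE was in 9.71%, 11.4% and 16.6% of these, from strongest to weakest, CGATA in 142, 175 and 197 of 350, and motif 1 in 13, 23 and 35 of 350. The TATA box ran the other way, in 39.1%, 33.7% and 27.7%, and the mean GC content of the windows was 36.6%, 37.0% and 39.6%. These motif shares were not adjusted for GC content. Motif 7 (19.7%, 24.6% and 18.6%) and the E-box CAGCTG (17.4%, 16.9% and 18.6%) showed no such order. Within strata of 4% GC, a search over the 7-mers of the strongest against the weakest 350 called none higher (0%) and 1 lower (0.0122%).

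That 7-mer was ATCGATA, 7 of the 8 letters of the DRE, in 53 of the strongest 350 (15.1%) against 100 of the weakest 350 (28.6%), with an odds ratio of 0.393 (0.269 to 0.575, exact test, adjusted p = 0.00535). At an unadjusted exact p under 0.05, 146 7-mers were higher and 159 lower. Within 50 bp of the summit it was in 18 (5.14%) against 60 (17.1%), with an odds ratio of 0.312 that did not pass (exact test, adjusted p = 0.0695). Before this split, 5 other contrasts by signal were tried, also with the data in view. The p-values of the split and of these contrasts are adjusted within each search only. They are not those of an independent test. The 200 strongest against the 500 weakest divergent promoter peaks gave 2 7-mers called higher (0.0244%) and 3 lower (0.0366%), among the lower ATCGATA (19 peaks against 142, odds ratio 0.234, exact test, adjusted p = 5.23e-06). The higher ones were CTACGCC and GGGCGTA. The other lower ones, ATCGATG and TCGATAA, each share a run of letters with the DRE but are not contained in it. All were named after their values were seen. Within 50 bp of the summit the same contrast called 0 higher and 0 lower (0% each), with ATCGATA at 0.208 (6 peaks against 82, exact test, adjusted p = 0.0842). Against relaxed divergent summits the 200 strongest gave 3 higher and 3 lower (0.0366% each), and 0 higher (0%) and 2 lower (0.0244%) within 50 bp, with ATCGATA among the lower both times. The 500 strongest IDR peaks of all classes against a sample of relaxed peaks called none. How many of the calls hold thus depends on the split and the window.

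With the peak set limited to the 1000 strongest peaks of the pooled list, CGATA was less frequent at divergent promoter peaks than at the 1425 relaxed divergent summits (odds ratio 0.613, 0.467 to 0.803, exact test, adjusted p = 0.00481), as was motif 1 (0.432, 0.236 to 0.791, exact test, adjusted p = 0.0157). Among the 1000 strongest, the DRE (3.31, exact test, adjusted p = 0.0153) and motif 1 (12.7, exact test, adjusted p = 0.00652) were both more frequent at divergent than at other promoter peaks.

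**Figure D5:**
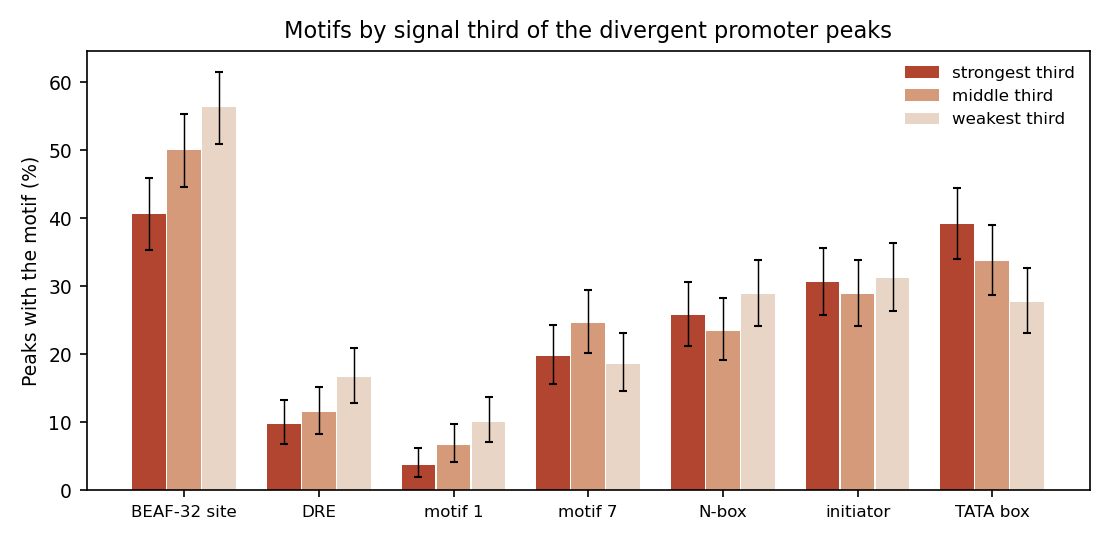
Percent of the divergent promoter peaks with each motif within 100 bp of the summit, in the strongest, middle and weakest 350 peaks by pooled signal, with 95% exact binomial intervals. CGATA (BEAF-32 site), the DRE and motif 1 are most frequent in the weakest peaks (197, 58 and 35 of 350), and the TATA box in the strongest (39.1%). The shares are not adjusted for GC content.

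Motifs were also set against the place of the summit. The DRE was in 113 of the 834 peaks with a summit between the start sites (13.5%, 11.3 to 16.1%), against 19 of the 216 others (8.80%, 5.38 to 13.4%), and CGATA in 50.6% against 42.6%. These intervals overlap. The TATA box was in 298 of the 834 (32.5 to 39.1%) against 54 of the 216 (19.4 to 31.3%), and it alone of the 15 motifs had intervals that do not overlap. The shares by place were not adjusted for GC content. Against relaxed divergent summits, the odds ratio of the TATA box was 1.52 without GC strata and 0.973 with them. The DRE nearest to a summit lay a median of 41.5 bp away in the 132 divergent promoter peaks that hold it and 32 bp away in the 138 relaxed divergent summits that do, and for CGATA the medians were 38 and 32 bp. Both medians were larger in the IDR peaks, and the difference was not tested.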

How the data were processed

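ChIP-seq peak lists of 2 biological replicates of 1 group were used. Per the deposited inventory, peaks were called for each replicate and for their pool against 1 control, and the IDR set came from these lists; no aligner, peak caller or version is given in the sources used here. The deposited signal per peak is the authors' value with no stated scaling to depth and served only to rank and describe the peaks of one list. The deposited −log10 q-value saturates and was not used for ranks. Lists on dm3 and the control were not analysed here.

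Summits were placed on dm6 (Release 6) with Ensembl release 115 start sites, and a summit took the qualifying pair with the smallest summed distance. Shares were compared by Fisher's exact test and motifs and 7-mers by an exact Mantel-Haenszel test over GC strata with Benjamini-Hochberg adjustment. Tests were checked on simulated data. Members and lists were chosen with earlier results of these data known. Named pairs are the 12 strongest, the 2 weakest, up to 3 per role list, pairs with both genes on lists and those at the limits, except 1 pair that is not reported here; named 7-mers are the 10 higher and 5 lower of smallest p. Python 3.11.15, numpy 2.4.6, scipy 1.17.1, pandas 2.3.3 and matplotlib 3.10.9 were used.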

Additional observations from a re-analysis of the deposited data

How the results depend on the processing

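No paired analysis was possible because there is 1 group. The odds ratio of the IDR share stayed between 1.86 and 2.44 and that of the share between the start sites between 2.96 and 4.59 under the alternatives run for them. The signal ratio was 0.994 with the 1000 strongest peaks (reversed), 1.16 with a gap of at most 500 bp, and 1.09 to 1.15 with 1 replicate left out. Support in both replicates was 79.0% with the 1000 strongest peaks, 78.4% with 1 summit per pair and 63.5% with replicate summits within 50 bp. Annotated pairs with an IDR summit were 12.2% with the 1000 strongest peaks and 42.1% with a gap of at most 500 bp.

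Of 7-mers against relaxed divergent summits, 5 to 14 were higher and 0 to 1 lower with 1 replicate left out. The 1000 strongest peaks gave 3 higher and 2 lower, a gap of at most 500 bp 2 higher, summits within 250 bp of a TSS 3 higher, and Fisher's exact test without strata 118 higher and 135 lower. Against other promoter peaks these were 14 to 21 higher and 14 to 23 lower with 1 replicate left out, 0 and 1 with the 1000 strongest peaks, 3 and 6 within 250 bp, 1 and 7 with 1 TSS per gene, 5 and 2 within 50 bp of the summit, 31 and 63 without strata, and 28 higher in relaxed peaks.

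Odds ratios that changed direction belonged to motifs that passed no threshold in the main comparison. Against relaxed divergent summits these were CGATA with the 1000 strongest peaks (0.613) and with summits within 250 bp of a TSS (0.991), the DRE without replicate 1 (0.960), without replicate 2 (0.932), with the 1000 strongest peaks (0.644) and within 250 bp (0.993), and CACGTG with the 1000 strongest peaks (0.657), within 250 bp (0.992), with 1 summit per pair (0.845), within 50 bp of the summit (0.976) and without strata (0.995). The TATA box was at 1.02 without replicate 1, 1.01 without replicate 2, 1.12 with the 1000 strongest peaks and 1.52 without strata, the initiator at 1.06 within 50 bp of the summit, and motif 6 at 1.04 without strata. Against other promoter peaks, the RE1 part CAGCACC was at 0.936 in relaxed peaks. The Zelda site was at 1.91 without replicate 1, 1.55 with the 1000 strongest peaks, 1.10 with a gap of at most 500 bp, 1.08 with 1 TSS per gene, 1.69 within 50 bp of the summit and 1.26 in relaxed peaks. Motif 6 was at 1.17 with the 1000 strongest peaks, 1.04 with a gap of at most 500 bp, 1.05 within 50 bp of the summit, 1.02 without strata and 1.15 in relaxed peaks. The cause was not tested. Relaxed peaks were an alternative chosen after seeing the data. Depth is unknown, so a pair with no summit cannot be told from one below detection.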
